A study of Drosophila melanogaster with 12 samples.

Results

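The circadian clock genes described here are *Clk*, *cyc*, *per*, *tim*, *cry*, *jet*, *vri*, *Pdp1*, *cwo* and *Pdfr*, 10 of the 17697 genes in each table. They were picked by name as the core loop, the second loop and the PDF receptor, and each was found in every table. RNA-seq was performed on 12 libraries of *Drosophila melanogaster*, 4 each of adult tracheae, larval tracheae and whole flies. The adult tracheae were dissected by hand from the head, thorax and abdomen of w1118 females 5 to 7 days old. The larval tracheae came from w1118 larvae of the 3rd instar and of mixed sex. The whole flies were intact w1118 females, so adult and larval samples differed in stage and also in sex. Stocks were kept at 25 °C under 12 h of light and 12 h of darkness. For the dissected tracheae, 3 animals were pooled per library. The time of day at which the animals were collected was not stated in the sources used here, so a difference between groups or libraries and a difference in clock phase cannot be told apart.

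The fly clock is a transcriptional feedback loop. The proteins of *Clk* and *cyc* act as a dimer on E-box sites and switch on *per* and *tim*, whose proteins return to the nucleus and inhibit that dimer, while light acts through *cry* and *jet* to remove the Tim protein. A second loop runs through *vri* and *Pdp1*, which repress and activate *Clk*, and *cwo* damps transcription from E-boxes. The neuropeptide Pdf couples clock neurons through its receptor, and clocks also run in peripheral organs such as photoreceptors, glia, fat body and Malpighian tubules.

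Libraries held 5139980 to 14962142 gene reads for adult tracheae, 5017919 to 8169848 for larval tracheae and 5397732 to 9880844 for whole flies. RPKM divides the exon reads of a gene by its exon length and by the library's gene reads. A level of 3 reads was taken as the floor. Adult trachea replicate 3 stood apart, with 51.3% of its exon reads in its 20 highest genes, against 19.3 to 33.4% in the other adult trachea libraries, 31.7 to 39.9% for larval tracheae and 15.1 to 15.7% for whole flies. The tables also carry letters that can be read as other groups, so the titles were checked by marker genes. Of 12 tracheal epithelium markers, all 12 were higher in larval tracheae, and 6 in adult tracheae, than in whole flies. In adult tracheae 11 of these 12 were lower than in larval tracheae. The gene *trh*, which sets tracheal fate, had 0 reads in whole flies.

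The clock genes were read at higher levels in adult tracheae than in larval tracheae. The summed level of the 10 genes was 105 to 158 RPKM in adult tracheae, 17.2 to 29.1 RPKM in larval tracheae and 72.6 to 158 RPKM in whole flies. Between adult and larval tracheae, *Clk*, *cyc*, *per*, *tim*, *cry*, *vri* and *jet* were called higher in adult tracheae, 7 of 10 with 0 called lower. Of these, *Clk*, *per*, *tim* and *cry* could be tested only through their reads in adult tracheae, as set out below. A gene was called by edgeR's quasi-likelihood test on exon reads at a Benjamini-Hochberg adjusted p under 0.05 over all genes tested and a fold change above 1.5. Of all 9875 genes tested there, 28.3% were called, 19.3% higher and 8.96% lower. For 6 of the 10, all but *vri* of those called, the groups did not overlap in CPM, against 32.5% of all genes tested. The median log2 fold change was 2.74 over the 10 clock genes and 0.19 over all genes. The number of clock genes called higher was 4 without adult trachea replicate 2.

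Against whole flies, *Clk*, *tim*, *cry*, *vri* and *Pdp1* were called higher in adult tracheae, 5 of 10 with 0 lower. Over all 9900 genes tested, 23.5% were called, 16.1% higher and 7.36% lower. In CPM, *Clk*, *tim*, *cry*, *vri* and *cwo* did not overlap between these groups, 5 of 10, against 29.9% of all genes tested. The median log2 fold change was 2.21 over the clock genes and 0.14 over all genes. The count of higher clock genes was 3 without whole fly replicate 2. Larval tracheae had 1 of 8 tested clock genes called higher than whole flies, *Pdp1*, and 4 called lower, *cyc*, *per*, *tim* and *cry*. Of all 9508 genes in that comparison 49.5% were called, 22.1% higher and 27.4% lower, which the 5 of 8 clock genes called are to be read against. The same 5 did not overlap in CPM, as did 48.8% of all genes tested. The median there was -1.87 over the clock genes, or -1.78 with *per* at its bound, and -0.26 over all genes. The 3 comparisons share their libraries pairwise.

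Some members entered a test through 1 group alone. A gene was tested where at least 2 of the 8 libraries held at least 10 reads. Against larval tracheae, *Clk*, *per* and *tim* reached 10 reads in 0 larval libraries and *cry* and *Pdfr* in 1, so these 5 entered through adult tracheae alone. For them a call could hardly be other than higher. The counts called, the counts without overlap and the median over the 10 genes rest in part on them. Of the members that did not enter this way, *cyc*, *vri* and *jet* were called higher, and *Pdp1* and *cwo* were not called. Against whole flies, *Clk* and *Pdfr* entered through adult tracheae alone. Between larval tracheae and whole flies *Clk* and *Pdfr* were not tested, and *per*, *tim* and *cry* entered through whole flies. The same limit on the direction of a call holds for the genes named in these comparisons.

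**Figure D1:**
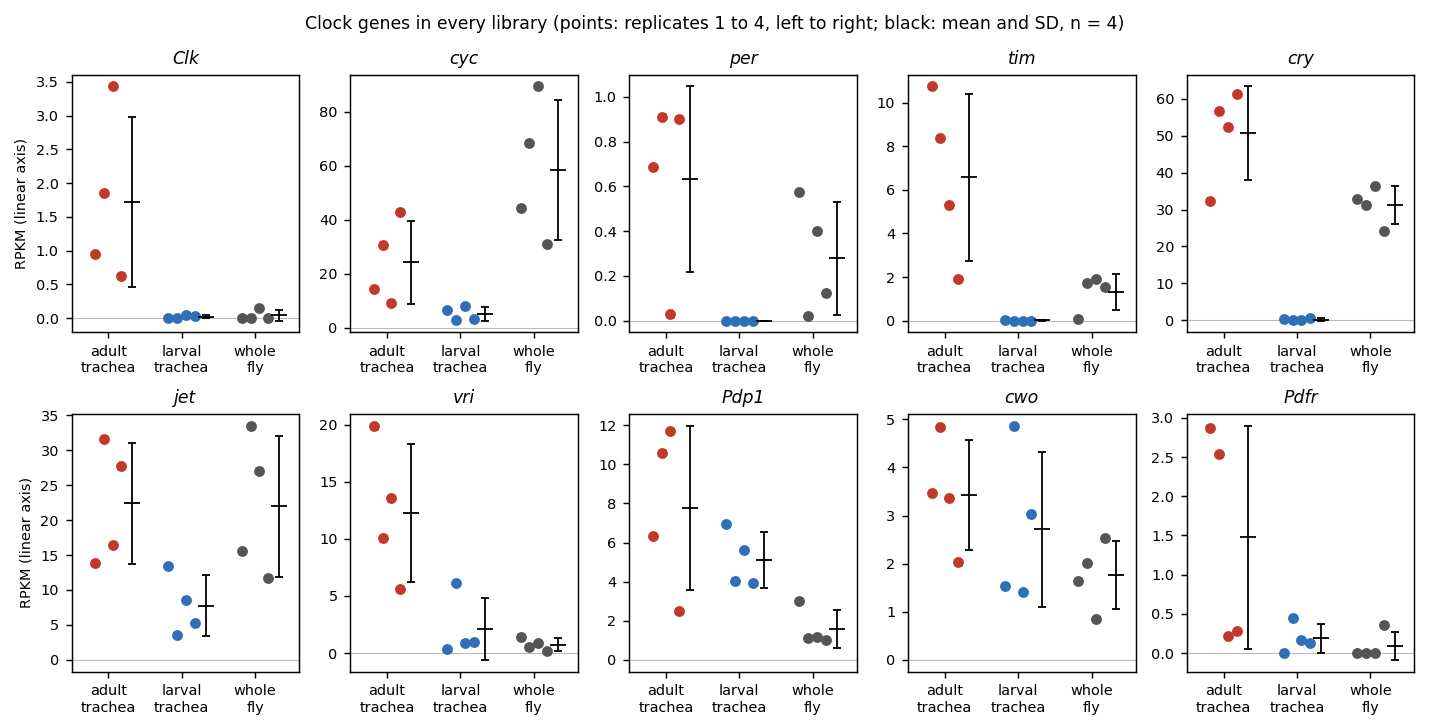
RPKM (linear axis, a scale per gene) of the 10 clock genes in every library of adult tracheae, larval tracheae and whole flies, with replicates 1 to 4 from left to right as points and the group mean and SD (n = 4) in black. *tim* sits between 1.92 and 10.8 RPKM in adult tracheae and at or under 0.0236 RPKM in larval tracheae, while *Pdp1* and *cwo* overlap between these groups.

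Nearly all exon reads of the activator gene *Clk* came from adult tracheae. *Clk* (FBgn0023076, chromosome 3L from 7763233 to 7775603 on BDGP6) encodes the bHLH-PAS protein that carries the activation domain of the dimer. It was at 0.948, 1.86, 3.43 and 0.630 RPKM in the adult trachea libraries (22, 61, 232 and 37 exon reads), against 0, 0, 0.0441 and 0.0271 RPKM in larval tracheae and 0, 0, 0.154 and 0 RPKM in whole flies. All 4 adult trachea libraries lay above all other libraries, with 2 exon reads in the larval libraries together and 5 in the whole flies, all 5 in replicate 3. With introns included, *Clk* had 580 gene reads in adult tracheae, 4 in larval tracheae and 68 in whole flies, 63 of these 68 in introns. The ratio of adult to larval tracheae was 117 with a 95% counting interval of 32.3 to 973 (fitted log2 fold change 6.68, SE 1.29, edgeR adjusted p = 0.00387). In bulk samples, fewer cells of a type and less RNA per cell cannot be told apart. Against whole flies the log2 fold change was 6.03 (SE 1.46, edgeR adjusted p = 0.0152), a call that was lost without adult trachea replicate 3 (adjusted p = 0.0559), without replicates 3 and 4 (0.0629) and with total gene reads (log2 fold change 2.88, adjusted p = 0.105). That library held 232 of the 352 *Clk* reads of adult tracheae.

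The partner gene *cyc* did not follow *Clk* in whole flies. *cyc* (FBgn0023094, chromosome 3L from 19813770 to 19815938) encodes the fly counterpart of BMAL1 and is known for a level that does not cycle. It was at 14.2, 30.7, 9.30 and 42.9 RPKM in adult tracheae, against 6.54, 2.83, 7.97 and 3.16 RPKM in larval tracheae and 44.3, 68.6, 89.5 and 31.02 RPKM in whole flies. Adult tracheae lay above larval tracheae without overlap and overlapped with whole flies. The log2 fold change of adult over larval tracheae was 2.06 (SE 0.49, edgeR adjusted p = 0.0109), that is 4.17-fold. Adult tracheae against whole flies gave -0.88 (SE 0.43, edgeR adjusted p = 0.145), and without adult trachea replicate 4 the gene was called lower there (adjusted p = 0.0455). Larval tracheae were lower than whole flies by 2.88 on the log2 scale (log2 fold change -2.88, SE 0.46, edgeR adjusted p = 0.000447).

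The repressor gene *tim* had 1 exon read in the larval libraries and the largest fitted log2 fold change of the 10 between adult and larval tracheae. That order is not fixed against *per*, whose value there is only a lower bound, or against *Clk*, whose counting interval overlaps that of *tim*. *tim* (FBgn0014396, chromosome 2L from 3493986 to 3508119) encodes the light-sensitive partner of Per. Its level was 10.8, 8.39, 5.30 and 1.92 RPKM in adult tracheae, against 0.0236, 0, 0 and 0 RPKM in larval tracheae and 0.0899, 1.70, 1.91 and 1.52 RPKM in whole flies. The exon reads numbered 1363 in the adult trachea libraries together, 1 in the larval ones and 243 in the whole flies. The ratio of adult to larval tracheae was 909 (95% counting interval 163 to 35937), with a fitted log2 fold change of 9.66 (SE 1.01, edgeR adjusted p = 0.000139). Against whole flies, the log2 fold change of adult tracheae was 2.91 (SE 0.78, edgeR adjusted p = 0.0228). The highest whole fly library lay at 1.91 RPKM and the lowest adult trachea library at 1.92 RPKM, and the call against whole flies was lost without adult trachea replicate 1 (adjusted p = 0.0572), whole fly replicate 2 (0.0561) or whole fly replicate 4 (0.0512). An offset for exon length also ended it (log2 fold change 1.65, adjusted p = 0.103). Larval tracheae were lower than whole flies (ratio 0.00653, edgeR adjusted p = 0.00377).

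Its partner *per* had the lowest mean level of the 10 in adult and in larval tracheae. *per* (FBgn0003068, chromosome X from 2685580 to 2692780) encodes the repressor of the Clk-Cyc dimer and had 16, 30, 2 and 53 exon reads in adult tracheae, against 0 in all 4 larval libraries and 14, 1, 13 and 3 in whole flies. In RPKM these were 0.688, 0.912, 0.0295 and 0.901 in adult tracheae, against 0 in larval tracheae, which allows up to 0.0811 to 0.132 RPKM, and 0.573, 0.0224, 0.400 and 0.122 in whole flies. Adult trachea replicate 3, the deepest library, had only 2 reads. *per* was at least 22.5-fold higher in adult than in larval tracheae, against a floor of 3 reads over the larval group (edgeR adjusted p = 0.0260, and 0.0577 without adult trachea replicate 2 and 0.0543 without replicate 4). Adult tracheae and whole flies overlapped, with a log2 fold change of 1.499 (SE 1.33, edgeR adjusted p = 0.418). Larval tracheae were at least 6.51-fold lower than whole flies (edgeR adjusted p = 0.0497). That last call was lost without any 1 larval library (adjusted p from 0.0752 to 0.0852) and without whole fly replicate 4 (0.0604), and also with DESeq2 (0.0834), RLE size factors (0.0516) and no filter on low counts (0.0608), so that it held in 8 of the 17 alternatives that tested it.

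Of the light input genes, *cry* was the most abundant clock gene of adult tracheae and close to absent from larval ones. *cry* (FBgn0025680, chromosome 3R from 19212154 to 19215442) encodes the blue-light photoreceptor of the clock. It was at 32.4, 56.6, 52.5 and 61.2 RPKM in adult tracheae, against 0.230, 0, 0 and 0.646 RPKM in larval tracheae and 32.8, 31.3, 36.4 and 24.2 RPKM in whole flies. The 4 larval libraries held 13 exon reads together, 10 of them in replicate 4. Adult over larval tracheae gave a log2 fold change of 7.72 (SE 0.89, edgeR adjusted p = 0.000221), and larval tracheae against whole flies gave -6.37 (SE 0.80, edgeR adjusted p = 9.09e-05). Both of these calls held in every alternative run. Adult tracheae and whole flies were closer, with a log2 fold change of 1.23 (SE 0.32, edgeR adjusted p = 0.0193). In RPKM the lowest adult trachea library (32.4) lay inside the range of the whole flies. That call was lost without whole fly replicate 2 (adjusted p = 0.0622), replicate 3 (0.0508) or replicate 4 (0.0521), and with limma on log2(RPKM + 0.1) it gave 0.67 (adjusted p = 0.196).

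*jet* (FBgn0031652, chromosome 2L from 4948206 to 4949784) encodes the F-box protein that acts with Cry in the light-driven loss of Tim. It was at 13.8, 31.6, 16.4 and 27.7 RPKM in adult tracheae, against 13.4, 3.55, 8.64 and 5.31 RPKM in larval tracheae and 15.6, 33.5, 27.02 and 11.8 RPKM in whole flies. The lowest adult trachea library lay just above the highest larval one, and adult tracheae overlapped with whole flies. Adult over larval tracheae gave a log2 fold change of 1.45 (SE 0.47, edgeR adjusted p = 0.0421). That call held in only 2 of the 8 fits that left out 1 library (adjusted p from 0.0193 to 0.106) and was lost with an offset for exon length (0.122). Adult tracheae against whole flies gave 0.49 (SE 0.40, edgeR adjusted p = 0.386) and larval tracheae against whole flies -0.86 (SE 0.50, adjusted p = 0.178). The end of *jet* shares 119 exon bases with *betaggt-I* on the other strand, and without stated strand the reads of the 2 genes cannot be told apart there.

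In the second loop, *vri* was high in adult tracheae and *Pdp1* in both kinds of tracheae. *vri* (FBgn0016076, chromosome 2L from 5288944 to 5311223) encodes the bZIP repressor of *Clk*. It was at 19.9, 10.1, 13.6 and 5.57 RPKM in adult tracheae, against 0.369, 6.11, 0.883 and 1.01 RPKM in larval tracheae and 1.45, 0.534, 0.852 and 0.155 RPKM in whole flies. Larval replicate 2 reached into the adult range, and whole flies lay below all adult trachea libraries. The log2 fold change of adult over larval tracheae was 2.66 (SE 0.87, edgeR adjusted p = 0.0444). That call held in 2 of 8 fits without 1 library (adjusted p from 0.00356 to 0.105). Against whole flies it was 4.65 (SE 0.73, edgeR adjusted p = 0.00232), called in all 23 alternatives run. Larval tracheae against whole flies gave 2.10 (SE 0.97, edgeR adjusted p = 0.0943).

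*Pdp1* (FBgn0016694, chromosome 3L from 7811458 to 7867369) encodes PAR-domain bZIP proteins, one of which activates *Clk*, and its other isoforms act outside the clock. The counts sum over all isoforms. It was at 6.32, 10.6, 11.7 and 2.49 RPKM in adult tracheae, against 6.93, 4.03, 5.63 and 3.93 RPKM in larval tracheae and 3.01, 1.11, 1.19 and 1.00 RPKM in whole flies. Adult and larval tracheae overlapped (log2 fold change 0.73, SE 0.56, edgeR adjusted p = 0.379). Larval tracheae lay above all whole flies, and adult tracheae did so except for replicate 4. The log2 fold change over whole flies was 2.91 in adult tracheae (SE 0.62, edgeR adjusted p = 0.00881) and 2.33 in larval tracheae (SE 0.42, edgeR adjusted p = 0.00105). An offset for exon length ended both calls, with 0.98 (adjusted p = 0.0932) for adult and 0.78 (adjusted p = 0.133) for larval tracheae. *Pdp1* has 12138 exon bases, the most of the 10 genes.

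The E-box repressor gene *cwo* (FBgn0259938, chromosome 3R from 10388258 to 10400752) was called in none of the 3 comparisons. It was at 3.48, 4.84, 3.37 and 2.04 RPKM in adult tracheae, against 1.54, 4.87, 1.41 and 3.03 RPKM in larval tracheae and 1.64, 2.01, 0.848 and 2.53 RPKM in whole flies. The 3 groups overlapped in RPKM. Adult over larval tracheae gave 0.36 (SE 0.52, edgeR adjusted p = 0.662), adult tracheae over whole flies 1.51 (SE 0.53, adjusted p = 0.0591) and larval tracheae over whole flies 1.24 (SE 0.56, adjusted p = 0.0853). Against whole flies *cwo* was called higher in adult tracheae by DESeq2 (adjusted p = 0.0200), with total gene reads (0.0404) and without adult trachea replicate 4 (0.0266).

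The receptor gene *Pdfr* (FBgn0260753, chromosome X from 2552206 to 2578640), which encodes the G protein-coupled receptor for Pdf, split the adult trachea libraries. It was at 2.88, 2.53, 0.215 and 0.280 RPKM in adult tracheae, against 0, 0.448, 0.171 and 0.131 RPKM in larval tracheae and 0, 0, 0 and 0.355 RPKM in whole flies. In these values, made from exon reads, adult trachea replicates 1 and 2 lay far above the rest, and replicates 3 and 4 lay among the larval libraries. With introns included and no scaling to depth, *Pdfr* had 82, 124, 100 and 61 gene reads in adult tracheae. Larval tracheae had 8, 15, 4 and 8. The log2 fold change was 2.82 over larval tracheae (SE 1.28, edgeR adjusted p = 0.132) and 4.53 over whole flies (SE 1.69, edgeR adjusted p = 0.0701). Both passed with DESeq2 (adjusted p = 0.0427 and 0.0151) and with total gene reads (0.0101 and 0.0373), and the difference from whole flies passed without whole fly replicate 4 (0.0243).

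**Figure D2:**
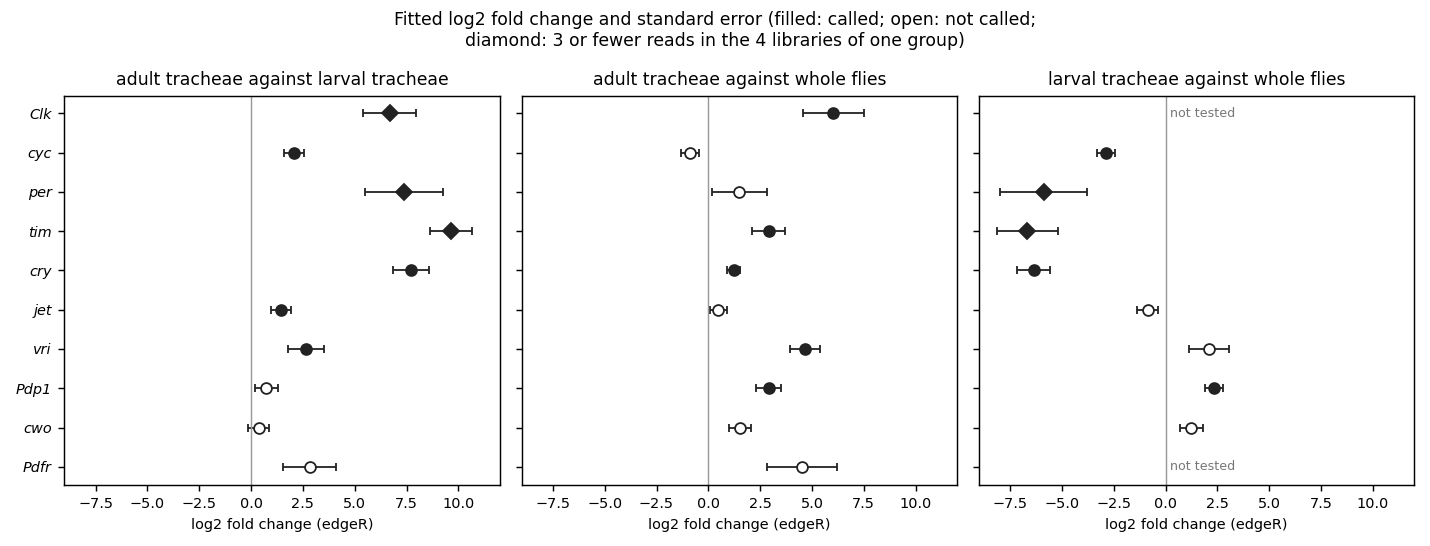
Fitted log2 fold changes (edgeR) with their standard errors for the 10 clock genes in the 3 comparisons, a positive value meaning higher in the group named first. Filled points were called, open ones were not, and diamonds had 3 or fewer reads in one group, where the fitted value is no bound. *tim* has the largest fitted difference of adult over larval tracheae (9.66) and *cry* stands at 7.72 over larval tracheae and at 1.23 over whole flies.

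The order of the clock genes by mean RPKM, which is per length, differed between groups. In adult tracheae it was *cry* (50.7 ± 12.7, SD, n = 4), *cyc* (24.3 ± 15.4), *jet* (22.4 ± 8.63), *vri* (12.3 ± 6.05), *Pdp1* (7.77 ± 4.21), *tim* (6.59 ± 3.84), *cwo* (3.43 ± 1.14), *Clk* (1.72 ± 1.26), *Pdfr* (1.48 ± 1.43) and *per* (0.632 ± 0.415). In larval tracheae *jet* (7.73 ± 4.35), *Pdp1* (5.13 ± 1.43) and *cyc* (5.13 ± 2.53) led, and *tim* (0.00589 ± 0.0118) and *per* (0) came last. In whole flies the order began with *cyc* (58.4 ± 25.96), *cry* (31.2 ± 5.15) and *jet* (22.0 ± 10.1) and ended with *Clk* (0.0385 ± 0.0771). Neighbours in each order had overlapping ranges, except that *jet* lay above *cwo* in whole flies without overlap.

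Spread between libraries of a group also differed by gene. In adult tracheae the SD of log2 CPM (reads scaled to library size) was 0.46 for *cry* and 0.37 for *jet*, below the median of 0.72 over 8633 expressed genes. It was 1.74 for *Pdfr*, 1.56 for *per*, 1.26 for *Clk*, 1.20 for *Pdp1*, 1.18 for *tim* and 1.00 for *vri*, all above that median. In whole flies *tim* had an SD of 1.79, a value reached by 5.92% of 8145 genes, with replicate 1 at 3 reads and the other libraries at 104, 85 and 51. *cry* in whole flies had an SD of 0.25, against a median of 0.50.

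Partners of the loops were set against each other within each library, where depth cancels, wherever both had at least 3 reads. *vri* over *Pdp1*, the repressor over the activator of *Clk*, was 3.15, 0.953, 1.16 and 2.24 in adult tracheae, against 0.0532, 1.52, 0.157 and 0.256 in larval tracheae and 0.481, 0.481, 0.714 and 0.155 in whole flies. All adult trachea libraries lay above all whole flies, with a difference of 2.06 in mean log2 ratio (exact two-sided permutation test over 70 splits, p = 0.0286, the smallest p that 4 against 4 allows, and 0.143 adjusted over the 5 ratio tests made). Adult over larval tracheae gave 2.81 (exact p = 0.0857, adjusted p = 0.214), with larval replicate 2 inside the adult range. Larval tracheae minus whole flies gave -0.75 (exact p = 0.629, adjusted p = 0.629). None of the 5 ratio tests passed after adjustment.

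*cry* over *jet*, the photoreceptor over its F-box partner, overlapped between adult tracheae and whole flies. It was 2.35, 1.79, 3.19 and 2.21 in adult tracheae, against 2.11, 0.935, 1.35 and 2.05 in whole flies (log2 difference 0.61, exact permutation p = 0.143, adjusted p = 0.214). In the 2 larval libraries with enough reads it was 0.0172 and 0.122. *cry* over *tim* was 3.01, 6.74, 9.90 and 31.9 in adult tracheae and 365, 18.4, 19.0 and 15.9 in whole flies (log2 difference -2.08, exact permutation p = 0.171, adjusted p = 0.214). The value of 365 belongs to whole fly replicate 1 with its 3 *tim* reads.

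The other ratios had fewer than 4 libraries in at least 1 group of each comparison and were not tested. *tim* over *Clk*, target over activator, was 11.4, 4.52, 1.54 and 3.04 in adult tracheae and 12.4 in the only whole fly library with reads of both. *vri* over *Clk* was 21.0, 5.42, 3.95 and 8.83 in adult tracheae and 5.53 in that whole fly library. In both ratios adult trachea replicate 1 was the highest and replicate 3 the lowest of the adult trachea libraries. *Clk* over *cyc* was 0.0665, 0.0606, 0.369 and 0.0147 in adult tracheae, against 0.00172 in whole fly replicate 3, so *Clk* was the rarer partner in each. *per* over *tim* was 0.0639, 0.109 and 0.470 in adult trachea replicates 1, 2 and 4, against 6.37, 0.209 and 0.0803 in whole fly replicates 1, 3 and 4. Only whole fly replicate 1 had more *per* than *tim* per length, on 14 and 3 reads.

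**Figure D3:**
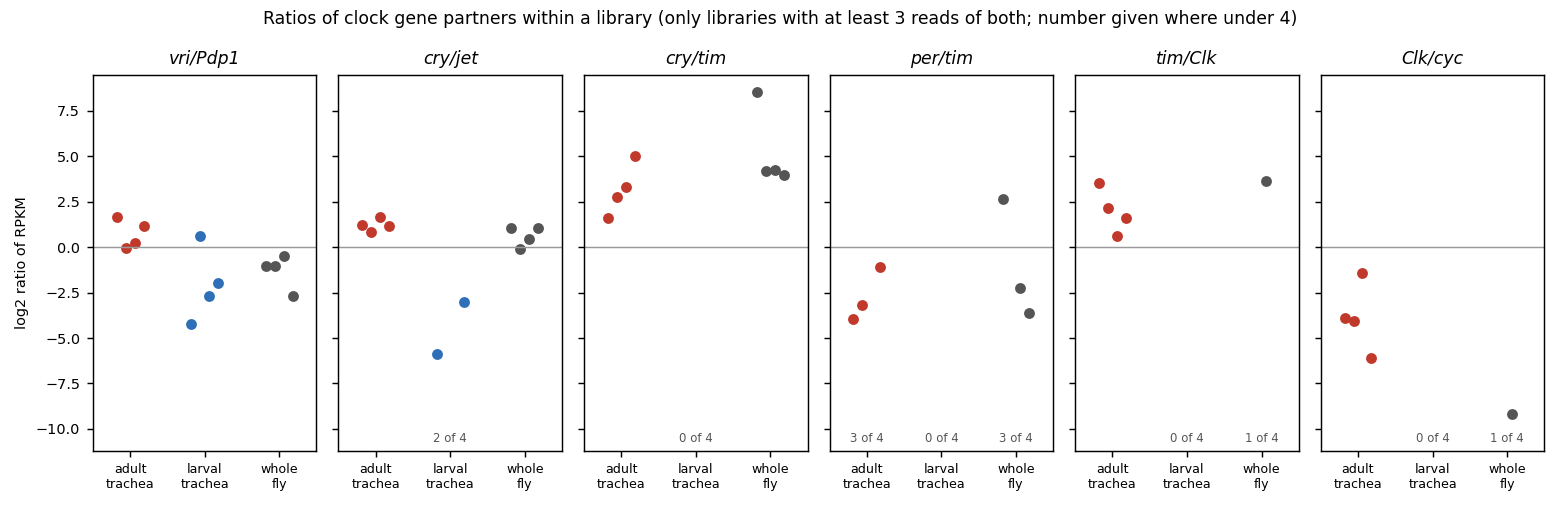
Log2 ratios of RPKM between clock partners within each library of adult tracheae, larval tracheae and whole flies, drawn only where both genes had at least 3 reads, with the number of such libraries printed where it is under 4. *vri*/*Pdp1* lies between -0.07 and 1.66 in adult tracheae and between -2.69 and -0.49 in whole flies, and whole fly replicate 1 stands at 8.51 in *cry*/*tim*.

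Over the 12 libraries, the log2 CPM of *tim* went with that of *cry* (Pearson r = 0.867), *Clk* (0.768), *jet* (0.725), *per* (0.643) and *cyc* (0.588), and hardly with *Pdp1* (0.011) or *cwo* (0.128). *Clk* went most with *vri* (0.800). These values are descriptions over 12 points that share the 3 groups and so mostly hold the group differences. Of 9482 genes compared, 3.24% had an r with *tim* at or above that of *cry*. The genes most like *tim* outside the 10 were *Scgalpha* (0.966), *CG18135* (0.962) and *CG5080* (0.956). Those most like *cry* were *Tsp42Ej* (0.992), *CG14757* (0.988) and *plh* (0.988). For *Clk* they were *CG1090* (0.985), *nAChRalpha7* (0.977), a subunit of an acetylcholine receptor, and *CG15765* (0.976), and for *per* they were *CG6429* (0.894), *Sply* (0.893) and *CG4730* (0.884).

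Of 13 kinases, phosphatases and turnover factors, 1 was called higher in adult than in larval tracheae, *nmo*, and 1 lower, *CkIIbeta* (log2 fold change -1.13, edgeR adjusted p = 0.0371), with a median of -0.25 and 28.3% of all genes called. *CkIIbeta* is the regulatory subunit of casein kinase 2, which phosphorylates Per and Tim. Against whole flies 3 of 13 were higher in adult tracheae and 0 lower (median 0.77), beside 16.1% and 7.36% of all genes. In larval tracheae 6 of 13 were higher than in whole flies and 1 lower (median 0.45). There 49.5% of all genes were called, a share near that of this list. *CkIIalpha*, its catalytic subunit, was at 15.6, 36.5, 16.2 and 9.17 RPKM in adult tracheae, against 34.7, 26.7, 34.98 and 32.7 in larval tracheae and 6.90, 6.24, 3.09 and 4.32 in whole flies. Over whole flies this gave 2.38 in adult tracheae (edgeR adjusted p = 0.00714) and 3.27 in larval tracheae (edgeR adjusted p = 1.59e-05). *Cul3*, a scaffold of ubiquitin ligases, was also higher than in whole flies, by 1.71 in adult tracheae (edgeR adjusted p = 0.0208) and by 2.15 in larval tracheae (0.000328), and *sgg*, the fly GSK-3 kinase that phosphorylates Tim, by 1.91 in adult tracheae (0.0294) and by 2.10 in larval tracheae (0.00193). The gene lower in larval tracheae was *dco*, the kinase known as Doubletime (-1.76, edgeR adjusted p = 0.0178), named after its value was seen.

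Of 12 transcription and RNA cofactors of the clock, 11 were tested between the tracheae, 1 was higher in adult tracheae, *kay*, and 0 lower (median -0.13). Of all genes tested, 19.3% were higher and 8.96% lower there. Against whole flies 2 of 11 were higher in adult tracheae and 1 lower (median 0.47), beside 16.1% and 7.36% of all genes. The lower gene was *lark*, an RNA-binding protein (-1.002, edgeR adjusted p = 0.0301). In larval tracheae 3 of 10 were higher than in whole flies and 0 lower (median 0.53), against 22.1% higher of all genes, among them *Eip75B*, a nuclear receptor (3.13, edgeR adjusted p = 5.52e-05), and *kis*, a chromatin remodeller (1.31, edgeR adjusted p = 0.000781).

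Clock outputs and their ion channels parted between the groups. Of 12, 6 were higher in adult than in larval tracheae and 1 lower (median 4.01), and 4 were higher and 1 lower in adult tracheae than in whole flies (median 3.59). Of all genes tested, 19.3% were higher and 8.96% lower in the first comparison, and 16.1% and 7.36% in the second. Of the 7 tested between larval tracheae and whole flies, 1 was higher and 1 lower, *to* and *Pdf* (median -0.37). There 22.1% of all genes were higher and 27.4% lower. *Pdf*, the neuropeptide of clock neurons and ligand of Pdfr, was at 10.3, 75.7, 143 and 63.7 RPKM in adult tracheae, against 0 in all larval libraries and 5.18, 3.72, 15.4 and 20.3 RPKM in whole flies. It was at least 539-fold higher in adult than in larval tracheae (edgeR adjusted p = 0.00193), at least 40.8-fold lower in larval tracheae than in whole flies (0.00354), and higher in adult tracheae than in the intact animals with overlap between the groups (log2 fold change 3.41, edgeR adjusted p = 0.0152). The highest *Pdf* library, adult trachea replicate 3, was the lowest of its group in *Pdfr*. *Dh31*, a further clock neuropeptide, was at least 74.9-fold higher in adult than in larval tracheae (edgeR adjusted p = 0.00410). The potassium channel gene *slo* gave 5.73 in that comparison (edgeR adjusted p = 0.00645), and *Slob*, which binds the Slo channel, gave 6.96 against whole flies (edgeR adjusted p = 0.00144). Over whole flies, *unc80*, of the narrow abdomen channel complex, was at least 27.6-fold higher in adult tracheae (edgeR adjusted p = 0.0398).

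The 1 output gene that ran the other way was *to*, a takeout family member known as clock-controlled. It was at 2.17, 7.47, 1.12 and 1.96 RPKM in adult tracheae, against 124, 44.7, 16.1 and 251 RPKM in larval tracheae and 16.4, 11.1, 15.4 and 18.5 RPKM in whole flies. Adult tracheae lay below both other groups without overlap. The log2 fold change was -5.27 against larval tracheae (edgeR adjusted p = 0.00169) and -1.92 against whole flies (edgeR adjusted p = 0.0447). Larval tracheae were higher than whole flies by 3.44 (edgeR adjusted p = 0.00216).

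Markers of other cell types that carry clocks also differed between the groups. The photoreceptor and fat body sums were lowest in larval tracheae, as the clock gene sums were. So were the midgut and ovary sums, given below. The neuron and glia sums were lowest in whole flies, but the larval sums were nearly all *Syx1A* and *Gs2*. The summed level of 16 photoreceptor markers was 1341 to 2463 RPKM in adult tracheae, 6.08 to 12.5 RPKM in larval tracheae, where *trp* and *trpl* were at 0 reads, and 1088 to 1263 RPKM in whole flies. Of these, 15 of 16 were higher in adult than in larval tracheae and 8 of 16 higher than in whole flies, with 0 lower in either. The 17 neuron markers summed to 35.3 to 151 RPKM in adult tracheae, 21.9 to 28.04 RPKM in larval tracheae, with *brp* and *VGlut* at 0, and 5.79 to 12.4 RPKM in whole flies. Nearly all of the larval sums was *Syx1A*, at 26.7, 24.5, 24.3 and 19.5 RPKM, against 11.4, 28.8, 22.0 and 4.60 RPKM in adult tracheae. These sums are therefore no measure of the other neuron markers in larval tracheae. Of the 17, 13 were higher in adult than in larval tracheae and 14 higher than in whole flies. Of all genes tested, 19.3% were higher in adult than in larval tracheae and 16.1% higher than in whole flies. The neuron sums of adult trachea replicates 2 and 3 were the highest. The part of these cells in the clock gene results was not tested.

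The summed glia markers, nearly all *Gs2* in larval tracheae, overlapped between adult and larval tracheae, and those of fat body did not. The 8 glia markers summed to 859 to 1943 RPKM in adult tracheae, 482 to 3452 RPKM in larval tracheae, with *repo* at 0, and 117 to 174 RPKM in whole flies. *Gs2* was at 1174, 2516, 481 and 3450 RPKM in larval tracheae, against 724, 1695, 1491 and 760 RPKM in adult tracheae. The glia sums are therefore no measure of the other glia markers in larval tracheae. Of the 8, 6 were higher in adult than in larval tracheae and 5 higher than in whole flies. Between larval tracheae and whole flies, 1 of 8 was higher in larval tracheae, *Gs2*, and 3 were lower, beside 22.1% and 27.4% of all genes. The 14 fat body markers summed to 39173 to 85157 RPKM in adult tracheae, 31.8 to 115.1 RPKM in larval tracheae and 13801 to 17301 RPKM in whole flies, where *Fbp1* was at 0. Of the 14, 10 were higher in adult tracheae in each comparison, with 1 lower than in larval tracheae. Nearly all of the sums in adult tracheae and whole flies was the yolk protein genes *Yp1*, *Yp2* and *Yp3*, in female samples set against larvae of mixed sex. These sums are therefore little measure of the other fat body markers. The 5 Malpighian tubule markers summed to 9.94 to 48.8 RPKM in adult tracheae, 0 to 26.4 RPKM in larval tracheae, with *CapaR* at 0, and 52.7 to 80.5 RPKM in whole flies, and 2 of 4 tested were higher in adult than in larval tracheae and 0 of 4 were called by edgeR against whole flies. Tracheal epithelium markers ran the other way from the clock genes between adult and larval tracheae, but not between adult tracheae and whole flies, at 26.7 to 78.7 RPKM in adult tracheae, 738 to 1868 RPKM in larval tracheae and 13.6 to 24.5 RPKM in whole flies. Of all genes tested, 19.3% were higher and 8.96% lower in adult than in larval tracheae, and 16.1% and 7.36% against whole flies. The part of glia, fat body and tubule cells in the clock gene results was not tested either.

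Of the remaining marker lists, 4 of 13 muscle, 3 of 7 haemocyte, 6 of 7 midgut and all 9 tested ovary markers were higher in adult than in larval tracheae. Against whole flies, 7 of 13 muscle and 5 of 6 haemocyte markers were higher in adult tracheae, and 5 of 9 midgut and 2 of 10 ovary markers lower. Of all genes tested, 19.3% were higher in adult than in larval tracheae. Against whole flies, 16.1% of all genes were higher in adult tracheae and 7.36% lower. The smaller of these marker counts are to be read against those shares. Midgut markers summed to 1293 to 7965 RPKM in adult tracheae, 4.92 to 37.4 RPKM in larval tracheae and 35674 to 38886 RPKM in whole flies. For ovary markers the sums were 61.5 to 11134.5 RPKM, 0.544 to 5.34 RPKM and 6660 to 10637 RPKM in the same order. Both lists were thus lowest in larval tracheae, as the clock genes were.

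**Figure D4:**
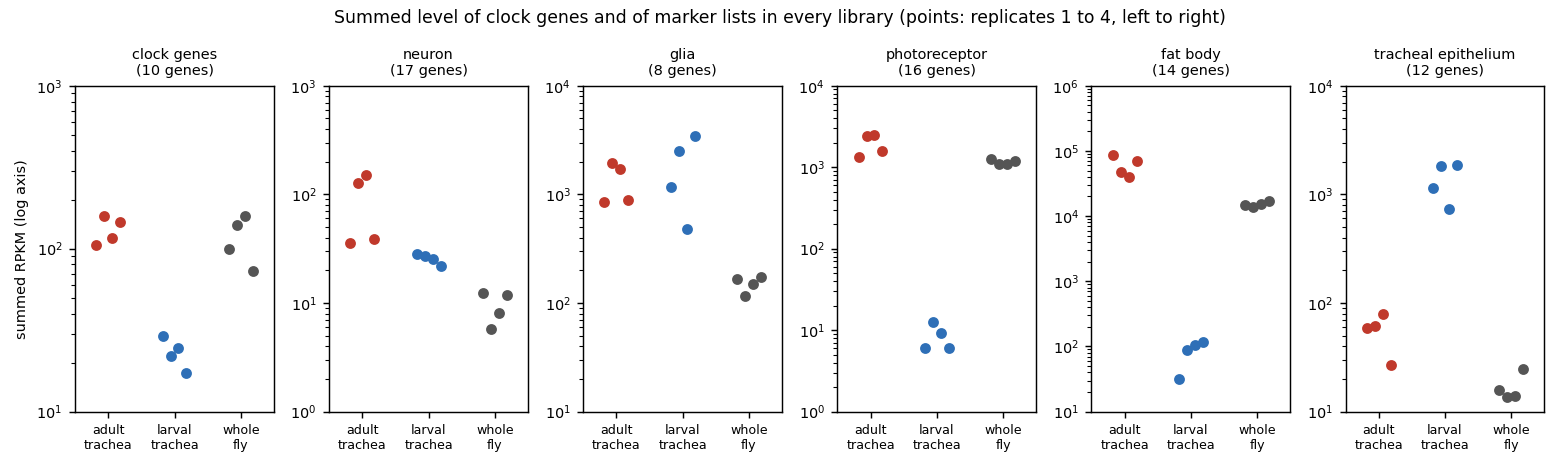
Summed RPKM (log axis, a scale per list) of the 10 clock genes and of the marker lists in every library, with replicates 1 to 4 from left to right in adult tracheae, larval tracheae and whole flies. Photoreceptor and fat body markers are lowest in larval tracheae, as the clock genes are, while tracheal epithelium markers are highest there. Midgut and ovary sums, not drawn, are also lowest in larval tracheae. The neuron and glia sums are lowest in whole flies, but the larval sums are nearly all *Syx1A* and *Gs2* and do not show the other markers.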

How the data were processed

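Groups were taken from the sample titles. Complete cDNA, tagged through oligo dT and cap finder primers, was amplified by PCR, and the authors mapped reads to BDGP6 with the CLC Genomics Workbench, for which no version is given in the sources used here. The deposited counts (total exon, gene, intron and unique reads) are raw, and the deposited RPKM are the authors' own, made from total exon reads, exon length and the gene reads of the library. Deposited TPM values were not used. The positions of the 10 genes equal those in the Ensembl annotation of BDGP6. Whether counting used strand is not stated there.

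Total exon reads were tested in R 4.3.3 with edgeR 4.0.16 (TMM, quasi-likelihood F-test), with each comparison fitted to its own 8 libraries, over genes that reached 10 reads in 2 or more libraries. A call needed a Benjamini-Hochberg adjusted p below 0.05 and more than a 1.5-fold change. Overlap between groups in the counts of genes was judged on TMM-scaled CPM. Log2 ratios of RPKM were compared by exact permutation. Fits were tested on simulated data, where 187, 179 and 179 of 200 changed genes were recovered in the 3 comparisons. False calls there numbered 10, 6 and 16. The changed genes were drawn from well-read genes, and all genes were given the same dispersion (spread beyond counting error). Recovery at read counts as low as those of *per*, *Clk* and *Pdfr*, or at a spread as wide as theirs, was therefore not tested. Python 3.11.15, pandas 2.3.3 and matplotlib 3.10.9 were used. Alternatives were DESeq2 1.42.0, filterByExpr, no filter, RLE factors, library sizes that leave out the 20 highest genes, all groups in 1 fit, the replicate number as a block, adjusted p alone, gene reads, unique reads, limma 3.58.1 on log2(RPKM + 0.1) with and without a filter at 0.5 RPKM, limma on log2(RPKM + 1), an offset for exon length, and fits without single libraries or without adult trachea replicates 3 and 4.

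Members and gene lists were chosen with earlier results of these data known. Named genes are the 10 members, up to 3 genes per further list and comparison with the largest absolute log2 fold change among those called without overlap, and the 3 genes most like *tim*, *per*, *cry* and *Clk* among genes with a mean of at least 1 RPKM in a group, by log2 CPM with a prior count of 2. The genes *nmo*, *kay* and *dco* were named after their values were seen. Marker lists are given by counts and sums, with some of their genes also named after their values were seen. Reads carry no molecular identifiers, so floors and intervals cover counting error only, and p-values measure only the spread between these libraries. Promoter and protein sequences were not analysed here.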

Additional observations from a re-analysis of the deposited data

Results flagged for a closer look

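Of 40 groups of 4 values, 6 held a library whose gap to the nearest other library, divided by the range of the group, was above Dixon's 95% critical value. Chance gives about 1 in 20 groups, a rate that does not apply to the 3 groups below with 3 libraries at 0, where any single library with reads meets the criterion. In whole flies these were *Clk* in replicate 3 (0.154 RPKM, with the other 3 at 0), *Pdp1* in replicate 1 (3.01 RPKM, against 1.00 to 1.19), *Pdfr* in replicate 4 (0.355 RPKM, with the other 3 at 0) and the log2 ratio of *cry* to *tim* in replicate 1 (8.51, on 3 *tim* reads). In larval tracheae they were *tim* in replicate 1 (0.0236 RPKM, which is 1 read) and *vri* in replicate 2 (6.11 RPKM, against 0.369 to 1.01). Without larval trachea replicate 2, the log2 fold change of *vri* in adult over larval tracheae was 4.14.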

How the results depend on the processing

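No log2 fold change of the clock genes and no ratio changed direction under any alternative run. *Clk*, *cyc*, *tim* and *cry* between adult and larval tracheae, *vri* between adult tracheae and whole flies, and *cyc* and *cry* between larval tracheae and whole flies were called in every one, as was *tim* in the last comparison in all 21 that tested it. With 1 library left out, clock genes called higher numbered 4 to 6 of 10 in adult over larval tracheae (7 with all libraries) and 3 to 6 in adult tracheae over whole flies (5 with all), where 0 to 1 were lower. Over whole flies the count was 3 with limma on log2(RPKM + 0.1), with or without a filter, with an offset for exon length, and without adult trachea replicates 3 and 4. In larval tracheae over whole flies, clock genes called higher numbered 2 with DESeq2, 2 with gene reads and 0 with the length offset (1 as reported), and those called lower 2 with filterByExpr, which tested neither *per* nor *tim* (4 as reported). All genes called in adult tracheae over whole flies numbered 1271 to 3286 with 1 library left out (2323 with all).

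The replicate number as a block gave 5 clock genes higher in adult over larval tracheae, 3 in adult tracheae over whole flies, and 1 higher and 3 lower in larval tracheae over whole flies, with 1450 genes called in all in the second comparison. Replicate numbers did not pair the samples: deviations of libraries with the same number correlated at -0.09 to 0.04. In 12 checks of an adult or larval trachea library against the other group of a comparison, 1 had its best correlation with its own number.

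Of all genes called, 68.3% were higher in adult over larval tracheae, 52.9% with the length offset. In adult tracheae over whole flies the share was 68.6%, but 46.9% with limma on log2(RPKM + 0.1), 34.5% on log2(RPKM + 1), 49.7% without a filter, 53.9% with the length offset, 58.5% without adult trachea replicate 4 and 49.2% without replicates 3 and 4. In larval tracheae over whole flies it was 44.7%, and 28.03 to 28.5% with limma. Limma, which takes no TMM factors, shifted the median of all genes on the log2 scale to -0.37 in adult tracheae over whole flies and to -0.87 in larval tracheae over whole flies. The length offset shifted it to -0.15 in adult over larval tracheae.

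Depth limits *per*, *Clk* and *Pdfr* most, and *tim* and *cry* in larval tracheae: 3 reads stand for 0.201 to 0.584 CPM in an adult trachea library and 0.367 to 0.598 CPM in a larval one.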

Other observations

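The reads of the clock genes differed in where they fell. Over all libraries, 0 of 1303 exon reads of *cwo* crossed an exon junction, as in 264 of 7569 genes (3.49%) with several exons and at least 500 exon reads, where the median was 11.2%. Junction reads made up 1.31% of the exon reads of *vri*, 5.29% of those of *Clk*, 7.49% of those of *Pdp1*, 12.1% of those of *cry*, 15.9% of those of *tim* and 19.3% of those of *cyc*. Over whole libraries it was 9.13 to 15.5% for adult tracheae, 16.6 to 18.01% for larval tracheae and 16.1 to 16.6% for whole flies.

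The share of intron reads differed between the clock genes and between groups. Of all *Clk* gene reads, 39.3% of 580 lay in introns in adult tracheae, against 92.6% of 68 in whole flies. With total gene reads *Clk* was not called between these groups (log2 fold change 2.88, edgeR adjusted p = 0.105). Of *Pdfr* gene reads, 49.0% of 367 were intronic in adult tracheae, and of the 10 *tim* gene reads in larval tracheae 9 were intronic. The share in adult tracheae was 21.9% for *cwo*, 16.8% for *Pdp1* and 9.15% for *vri*. For *cry* the share was 0.776% in adult tracheae, against 0.714% in whole flies.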
